A study of Mus musculus with 20 samples.

Results

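The carbonic anhydrase genes described here are Car2, Car3, Car4, Car8, Car9, Car12, Car13 and Car14, 8 of the 43472 genes in the count table. They were named by symbol, and the set was picked because Car2 was far lower in testosterone-treated than in vehicle-treated prostates. The testosterone differences of these genes are therefore given as descriptions without p-values, and the count of those called is set beside that of all genes. The mouse annotation lists 16 carbonic anhydrase genes in all, and the 8 others are used as a comparison.

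Bulk RNA sequencing was done on the ventral prostate, a lobe of the mouse prostate, of males that had all been orchidectomised, which removes the testicular source of androgen. ARNoC/Y mice (ARNoC below) carry an androgen receptor in which the amino-terminal and carboxyl-terminal parts cannot interact, and wild-type mice (WT below) were C57BL/6J. The 4 groups were ARNoC with testosterone, ARNoC with vehicle, WT with testosterone and WT with vehicle, each treated for 4 days and each with 5 libraries. Comparing treatments asks how the gland responds to returned androgen, and comparing genotypes asks whether the response differs when the receptor lacks that interaction.

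Carbonic anhydrases are zinc enzymes that interconvert carbon dioxide and bicarbonate with release of a proton. In secretory epithelia they supply bicarbonate and protons to transporters of the cell membrane and so take part in setting the pH of the fluid that is secreted. Car2, Car3 and Car13 encode cytosolic enzymes, Car4 an enzyme held at the outer cell surface by a lipid anchor, and Car9, Car12 and Car14 membrane-spanning enzymes whose active site faces outward. Car8 encodes a cytosolic carbonic anhydrase-related protein that lacks the classical activity and is known, from mouse brain, for binding an inositol trisphosphate receptor.

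The active site differs between the genes whose values are followed most closely below. The stretches are 30 coding bases each, from GENCODE M21 transcripts on mm10, and the capitals mark the codons of the first 2 zinc-binding positions of Car2.
Car2, chr3:14895057-14895086, plus strand: ttgatccagtttCACtttCACtggggctca
Car8, chr4:8221604-8221633, minus strand: ctgtatgaagttAGAtttCACtggggaaga
Car3, chr3:14866838-14866867, plus strand: cttcgccaattcCATcttCACtggggctcc
Car12, chr9:66747635-66747664, plus strand: gcagagcagctgCACttgCACtgggggaac
Counted from the first methionine of the Car2 protein, the zinc is held by histidines at positions 94, 96 and 119. Car8 had 2 of the 3 histidines and the substitution H94R, and the other 7 proteins had all 3. Over the aligned residues the identity to Car2 was 43.3% for Car8, 56.9% for Car3, 56.5% for Car13 and 37.5% for Car12, and it was 33.3% for Car4, the lowest of the 7.

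Libraries held 8861646 to 21600352 counts. Values below are normalized counts, which are counts divided by the size factor of the library, and errors are SD over 5 libraries. Of the 8 genes 7 passed the filter, which asked for 10 or more normalized counts in 5 or more of the 20 libraries, and Car9 did not, with 4 such libraries. In all, 15261 genes were tested with edgeR, and a gene was called when its adjusted p was below 0.05. The luminal epithelial markers Krt8, Krt18, Epcam and Cdh1 were high in all 20 libraries, with Krt8 between 4064 and 7074. All 9 seminal vesicle markers in the table were below the filter, and their summed level was at most 51.9 in any library. WT vehicle library 2 and ARNoC vehicle library 5 held the fewest stromal transcripts of the vehicle libraries, with summed fibroblast markers of 7161 and 5332, against 17495 to 51523 in the other 8. The altered receptor sequence cannot be seen in gene counts, so genotype labels were not checked. The labels do not say whether replicate libraries are from different animals, and p-values therefore reflect only the spread among these libraries, which may be technical.

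**Figure D1:**
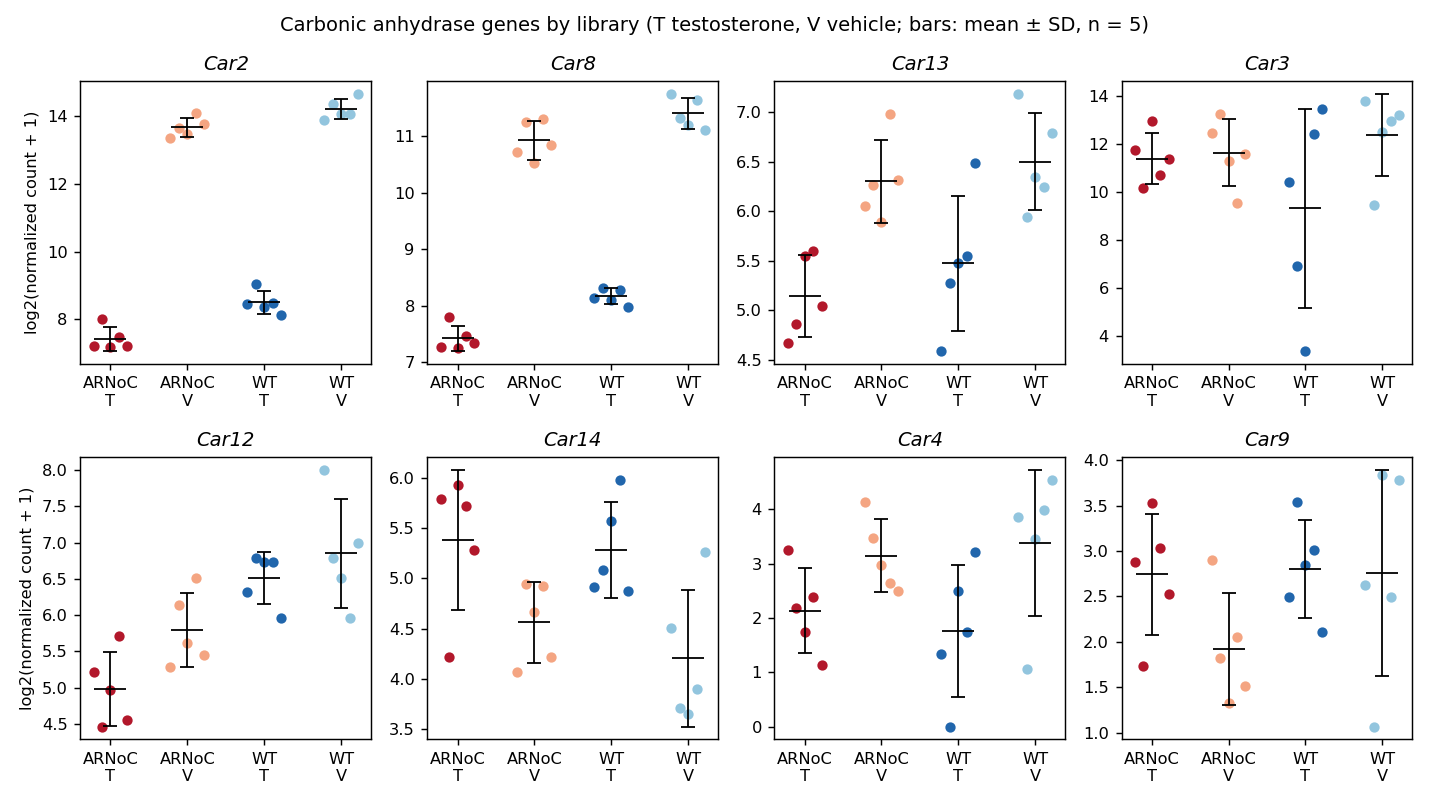
Each panel shows 1 carbonic anhydrase gene, with a point for each library on the y axis as log2(normalized count + 1), and bars giving the mean and SD over 5 libraries of each group on the x axis. Car2 and Car8 sit in separate bands for testosterone (T) and vehicle (V) libraries, whereas the Car3 points of WT testosterone run from 9.31 to 11288 normalized counts.

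Car2, the fast cytosolic enzyme, was the most abundant carbonic anhydrase of vehicle-treated prostates and one of the most lowered genes with testosterone. The gene (ENSMUSG00000027562.12) lies on chromosome 3 at 14886273 to 14900770 in mm10, on the plus strand. Its normalized counts were 147, 255, 143, 178 and 148 in ARNoC testosterone libraries, against 10496, 12820.4, 11427, 17314 and 13914 in ARNoC vehicle libraries. In WT testosterone libraries they were 351, 530.4, 329, 359 and 279.6, against 15068, 21001, 17216, 17069.5 and 25782 in WT vehicle libraries. Every testosterone library lay far below every vehicle library of the same genotype. The fitted log2 difference was -6.23 ± 0.23 (SE) in ARNoC, a 75.3-fold lower level, and -5.69 ± 0.22 in WT, a 51.7-fold lower level. Among the 15261 genes ordered from the most lowered, Car2 stood at place 5 in ARNoC and at place 3 in WT.

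Car2 transcripts made up 0.00108% to 0.00182% of all counts in ARNoC testosterone libraries and 0.102% to 0.169% in ARNoC vehicle libraries. The shares were 0.00208% to 0.00339% in WT testosterone libraries and 0.141% to 0.247% in WT vehicle libraries. In bulk tissue, fewer cells of a type and less RNA per cell cannot be told apart, and this holds for every level given here.

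Some cell-type markers also differed between testosterone and vehicle libraries. The summed level of 10 luminal epithelial markers was 55134 to 69609.5 in ARNoC testosterone and 53772 to 63477 in ARNoC vehicle libraries, and 51457 to 61942 in WT testosterone and 48834 to 58019.5 in WT vehicle libraries, so the ranges overlapped. Of these markers 2 rose and 5 fell in ARNoC, and 2 rose and 4 fell in WT. Of all tested genes 19.4% rose and 16.8% fell in ARNoC, and 20.4% rose and 18.8% fell in WT. Some of the marker counts in this paragraph lie near these shares. Of 9 macrophage markers 7 fell in ARNoC and 9 fell in WT, with sums of 2531 to 5065 in ARNoC testosterone against 2628 to 11753 in ARNoC vehicle, and of 1408 to 3386 in WT testosterone against 3047 to 17758 in WT vehicle. Of 10 fibroblast and stromal markers 1 fell in ARNoC and 5 fell in WT. Of 10 basal epithelial markers 5 fell in ARNoC, and 1 rose and 4 fell in WT, and of 10 proximal luminal markers 2 rose and 6 fell in ARNoC, and 2 rose and 4 fell in WT. Of 8 smooth muscle markers 4 rose in ARNoC and 1 in WT, and of 10 endothelial markers 3 fell in WT. Summed urothelial markers were 4081 to 7178 in ARNoC testosterone against 9771 to 13303 in ARNoC vehicle libraries, without overlap. In WT they were 8445 to 11086 with testosterone against 7778 to 12849 with vehicle. Of the 4 urothelial markers tested, 1 fell in ARNoC, and 1 rose and 1 fell in WT. The uroplakin gene Upk1b fell 6.18-fold in ARNoC and 2.96-fold in WT (edgeR, adjusted p = 3.67e-10 and 2.32e-07). Upk2 rose 7.3-fold in WT, at 53.8 ± 89.1 with testosterone (edgeR, adjusted p = 0.0336). The part of these shifts in the carbonic anhydrase differences was not tested. The vehicle libraries with the lowest macrophage and stromal sums, ARNoC library 5 and WT library 2, had Car2 at 13914 and 21001, within the range of the other vehicle libraries. Without those 2 libraries the Car2 difference was -6.21 in ARNoC and -5.66 in WT. Leaving them out does not match cell make-up between treatments, so nothing about make-up is read from these values.

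Car2 is also an enzyme of red blood cells. Summed erythroid markers, 7 in the table, were 331 to 881 in ARNoC testosterone, 323 to 866 in ARNoC vehicle, 248 to 1499 in WT testosterone and 493 to 2872 in WT vehicle libraries, and Rhag, a red-cell membrane protein, was at 0 in all 20 libraries. These ranges overlapped between treatments in both genotypes. Of the 5 erythroid markers tested, 0 were called in ARNoC, where 36.2% of all tested genes were called. In WT 1 fell, Alas2, by 1.44-fold (edgeR, adjusted p = 0.0321), where 39.2% of all tested genes were called. The median log2 difference of the 5 was 0.29 in ARNoC and -0.86 in WT, against -0.01 and -0.02 for all tested genes. Car1, the other major red-cell enzyme, stayed below 10 normalized counts in every library. How far red blood cells contributed to the Car2 differences was not tested.

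Car8, the related protein without the classical activity, showed the next largest testosterone difference. The gene (ENSMUSG00000041261.9) lies on chromosome 4 at 8143362 to 8239041, on the minus strand. Its levels were 153, 220.1, 151, 175 and 160.2 in ARNoC testosterone libraries and 1677, 2421, 1469, 2533 and 1829.8 in ARNoC vehicle libraries. They were 279, 318, 275, 310.1 and 249.6 in WT testosterone libraries and 3435, 2554, 2330.5, 3168 and 2217 in WT vehicle libraries. Again no testosterone library reached the level of a vehicle library. The log2 difference was -3.52 ± 0.16 (SE), or 11.5-fold, in ARNoC and -3.25 ± 0.16, or 9.52-fold, in WT, at places 26 and 38 from the most lowered gene.

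Car2 was lower by more than Car8, so the balance between them changed. Car2 counts were 0.926 to 1.16 times those of Car8 in ARNoC testosterone libraries, against 5.3 to 7.78 times in ARNoC vehicle libraries. In WT testosterone libraries the ratio was 1.12 to 1.67, against 4.39 to 11.6 in WT vehicle libraries. The ratio of 2 genes within a library does not depend on the scaling of libraries, and its ranges with and without testosterone did not overlap in either genotype.

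Car13, also a cytosolic enzyme, was much scarcer. The gene (ENSMUSG00000027555.8) lies on chromosome 3 at 14641727 to 14663002, on the plus strand. It had 24.4, 28.1, 45.7, 47.4 and 32 normalized counts in ARNoC testosterone libraries, against 65.4, 76, 58.5, 126 and 78.7 in ARNoC vehicle libraries. It had 23.1, 37.7, 43.4, 45.8 and 89 in WT testosterone libraries, against 145, 60.4, 80.4, 75 and 109.7 in WT vehicle libraries. The ARNoC ranges were separate, while WT testosterone library 5 lay among the vehicle libraries. The log2 differences were -1.16 ± 0.32 (SE) in ARNoC and -0.94 ± 0.31 in WT.

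Car13, Car1, Car3 and Car2 lie in this order within 259.0 kb of chromosome 3, and 13.7 kb separate Car3 from Car2. The neighbours had very different levels and testosterone differences. Car3 (ENSMUSG00000027559.5, 14863512 to 14872523, plus strand), a cytosolic enzyme abundant in fat and skeletal muscle, was the most uneven gene of the set. Its levels were 3481, 1133, 7874, 1678 and 2629 in ARNoC testosterone libraries and 5698, 9742, 2534, 747 and 3094 in ARNoC vehicle libraries. They were 1350.4, 120.2, 9.31, 5488 and 11288 in WT testosterone libraries and 14268, 696, 5789, 8095 and 9411 in WT vehicle libraries. The ranges overlapped in every comparison, and the coefficient of variation within a group ran from 65.0% to 132.0%. The log2 difference was -0.37 ± 0.999 (SE) in ARNoC and -1.05 ± 1.01 in WT, and the WT value was -2.17 without WT testosterone library 5 and -2.83 with limma-voom.

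The level of Car3 moved with fat cell transcripts. Its log2 level and that of the summed 10 adipocyte markers gave Pearson's r = 0.94 and Spearman's rho = 0.99 over the 20 libraries (permutation test, two-sided, p = 1e-05 each, the smallest that 100000 permutations can give, adjusted p = 3e-05 over 6 relations). Without the 2 libraries farthest from the median marker sum, r was 0.99. Within the 10 testosterone libraries r was 0.93 and rho 0.99 (permutation test, p = 7e-05 and 1e-05, adjusted p = 0.00017 and 3e-05). Within the 10 vehicle libraries r was 1.0 after rounding and rho 0.94 (permutation test, p = 1e-05 and 0.00022, adjusted p = 3e-05 and 0.00044). WT testosterone libraries 2 and 3, which had Car3 at 120.2 and 9.31, held Adipoq, the fat-cell hormone adiponectin, at 1.18 and 3.1 and Plin1, a coat protein of fat droplets, at 0 in both. With 10 skeletal muscle markers the relation over the 20 libraries was r = -0.1 and rho = 0.033 (permutation test, p = 0.68 and 0.89, adjusted p = 0.97 for both). Within the 10 testosterone libraries the muscle relation was r = 0.066 and rho = 0.36 (permutation test, p = 0.84 and 0.31, adjusted p = 0.97 and 0.53), with r = 0.66 without the 2 libraries farthest from the median marker sum, and within the 10 vehicle libraries it was r = -0.015 and rho = 0.067 (permutation test, p = 0.97 and 0.87, adjusted p = 0.97 for both). Libraries were permuted without regard to group, so these p-values do not separate differences between groups from those within groups. They may be too small if libraries of a group are not independent. The part of fat tissue in the Car3 differences between groups was not tested.

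**Figure D2:**
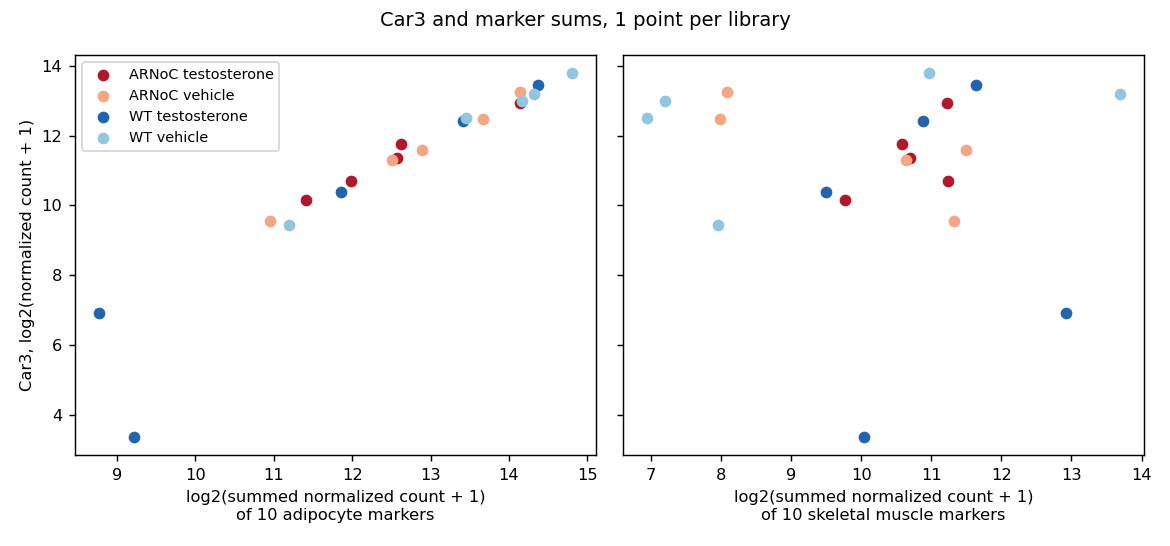
Each point is 1 library, with Car3 on the y axis and the summed normalized count of 10 adipocyte markers (left) or 10 skeletal muscle markers (right) on the x axis, all as log2(value + 1). Over the 20 libraries Spearman's rho of Car3 is 0.99 with the adipocyte sum and 0.033 with the muscle sum.

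Among the membrane enzymes with an outward active site, Car12 and Car14 reached 10 normalized counts in all 20 libraries. Car4 and Car9 had low counts and did so in 5 and 4 libraries. Car12 (ENSMUSG00000032373.15, chromosome 9, 66713686 to 66766845, plus strand) had 36.1, 21.1, 30.4, 51.6 and 22.6 normalized counts in ARNoC testosterone libraries and 38.1, 69.7, 47.9, 90 and 42.6 in ARNoC vehicle libraries. It had 78.5, 109.6, 105, 106 and 61.6 in WT testosterone libraries and 256, 109.8, 90.3, 61.1 and 127 in WT vehicle libraries. The treatments overlapped in both genotypes, with log2 differences of -0.79 ± 0.35 (SE) in ARNoC and -0.47 ± 0.33 in WT.

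Car14 was the 1 gene of the set with higher values under testosterone in both genotypes among those that passed the filter. The gene (ENSMUSG00000038526.14) lies on chromosome 3 at 95897768 to 95904691, on the minus strand, far from the cluster of Car2. It had 54.2, 17.6, 59.7, 51.6 and 38 in ARNoC testosterone libraries, against 15.8, 29.8, 24.3, 29.3 and 17.6 in ARNoC vehicle libraries. It had 29.3, 33, 46.5, 62.3 and 28.3 in WT testosterone libraries, against 21.7, 12.1, 11.6, 13.9 and 37.3 in WT vehicle libraries. ARNoC testosterone library 2 lay among the vehicle libraries and WT vehicle library 5 among the testosterone libraries. The log2 differences were 0.93 ± 0.35 (SE), or 1.91-fold, in ARNoC and 1.06 ± 0.36, or 2.08-fold, in WT. Over 7 other settings of scaling, filter, method or libraries they ran from 0.59 to 0.93 in ARNoC and from 0.64 to 1.12 in WT.

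Car4 (ENSMUSG00000000805.18, chromosome 11, 84957786 to 84966044, plus strand) passed the filter with exactly 5 libraries. It had 1.19 to 8.5 normalized counts in ARNoC testosterone and 4.63 to 16.5 in ARNoC vehicle libraries, and 0 to 8.32 in WT testosterone and 1.1 to 22.4 in WT vehicle libraries, so the ranges overlapped in both genotypes. The log2 differences were -1.11 ± 0.63 (SE) in ARNoC and -1.72 ± 0.65 in WT. Car9 (ENSMUSG00000028463.14, chromosome 4, 43506966 to 43513729, plus strand), which hypoxia induces in many tissues, averaged 6.24 ± 3.04 in ARNoC testosterone, 3.1 ± 1.98 in ARNoC vehicle, 6.36 ± 2.77 in WT testosterone and 7.39 ± 5.38 in WT vehicle libraries. The 4 groups held 20 to 39 Car9 counts each. Without the filter, the genotype difference of Car9 with vehicle was -1.21 on the log2 scale (95% interval -2.35 to -0.07; edgeR, adjusted p = 0.763), which did not pass the threshold.

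Of the 7 genes that passed the filter, edgeR called 4 between testosterone and vehicle in ARNoC, where 36.2% of all tested genes were called. Car2, Car8 and Car13 were lower (16.8% of all genes) and Car14 was higher (19.4%). In WT 5 were called, where 39.2% of all tested genes were called, with Car2, Car8, Car13 and Car4 lower (18.8%) and Car14 higher (20.4%). The genes were picked on this comparison, so nothing is read from these counts. The 5 libraries by which Car4 passed the filter were all vehicle libraries, so the filter itself favoured a lower level with testosterone for that gene. All testosterone libraries lay below all vehicle libraries for Car2, Car8 and Car13 in ARNoC (10.7% of all tested genes) and for Car2 and Car8 in WT (11.9%).

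The stated reason for choosing the genes was the testosterone difference of Car2 and not a difference between genotypes, although earlier genotype results of these data were known. With testosterone, edgeR called Car2, Car8 and Car12, all 3 lower in ARNoC than in WT, out of 7 tested, against 1.01% of all tested genes called lower and 1.69% called either way. The same 3 genes had every ARNoC testosterone library below every WT testosterone library, a separation seen in 2.33% of all tested genes. DESeq2 also called 3 of the 7, beside 493 of all tested genes, whereas limma-voom called 1 of the 7, beside 248 of all tested genes.

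Car2 averaged 174 ± 47.4 in ARNoC testosterone and 369.9 ± 95 in WT testosterone libraries. This was a log2 difference of -1.08 ± 0.20 (SE), 2.11-fold lower (edgeR, adjusted p = 0.00556), with 5 of 5 ARNoC libraries below all WT libraries. The call held when each of the 20 libraries was left out in turn, with log2 differences from -1.26 to -0.92.

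Car8 averaged 172 ± 28.5 in ARNoC testosterone and 286 ± 28 in WT testosterone libraries. It was 1.66-fold lower, at a log2 difference of -0.73 ± 0.16 (SE; edgeR, adjusted p = 0.0219), again with 5 of 5 ARNoC libraries below all WT libraries. The call was lost without WT testosterone library 2 or 4 or without ARNoC testosterone library 1, 3 or 5 (edgeR, adjusted p up to 0.0585), while the difference itself stayed between -0.83 and -0.69.

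Car12, a surface enzyme, averaged 32.4 ± 12.4 in ARNoC testosterone and 92.2 ± 21.1 in WT testosterone libraries. It was 2.78-fold lower, at a log2 difference of -1.47 ± 0.35 (SE; edgeR, adjusted p = 0.0337), and the highest ARNoC library, at 51.6, lay below the lowest WT library, at 61.6. The call was lost without any one of WT testosterone libraries 1 to 4 or of ARNoC testosterone libraries 1, 2, 3 and 5 (edgeR, adjusted p up to 0.0906), at differences of -1.73 to -1.36.

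Some cell-type markers differed between the same libraries. Summed urothelial markers, 5 in the table, were 4081 to 7178 in ARNoC testosterone against 8445 to 11086 in WT testosterone libraries, and Upk3a was at 0 in every ARNoC testosterone library. Of the 4 tested, 1 was called: Upk1b, a uroplakin, was 1.96-fold lower (edgeR, adjusted p = 0.00231). In this comparison 1.69% of all tested genes were called. Summed proximal luminal markers were 6009 to 9202 in ARNoC testosterone against 3912 to 7123 in WT testosterone, and 2 of 10 rose, Cldn10 by 1.66-fold (adjusted p = 0.0054) and Krt7 by 2.72-fold (adjusted p = 0.0384). Summed luminal epithelial markers overlapped, at 55134 to 69609.5 in ARNoC testosterone against 51457 to 61942 in WT testosterone, and so did macrophage and fibroblast sums. The part of cell make-up in the differences of Car2, Car8 and Car12 was not tested.

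For the other 4 tested genes the 95% intervals of the genotype difference with testosterone were wide and included 0. The interval was -1.11 to 0.23 for Car13, -2.20 to 1.97 for Car3, -0.56 to 0.88 for Car14 and -1.39 to 1.69 for Car4, on the log2 scale.

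With vehicle, edgeR called 0 of the 7 genes, against 0.321% of all tested genes, and DESeq2 also called 0. At an unadjusted p below 0.05 edgeR placed 3 of the 7, Car2, Car8 and Car12, against 7.49% of all tested genes. Car2 averaged 13194 ± 2647 in ARNoC vehicle and 19227 ± 4246 in WT vehicle libraries, a log2 difference of -0.54 (95% interval -0.92 to -0.16; edgeR, adjusted p = 0.352). Car8 averaged 1986 ± 468 in ARNoC vehicle and 2741 ± 534 in WT vehicle libraries, a difference of -0.46 (interval -0.76 to -0.16; edgeR, adjusted p = 0.27). Car12 averaged 57.6 ± 21.8 in ARNoC vehicle and 129 ± 75.3 in WT vehicle libraries, a difference of -1.15 (interval -1.85 to -0.46; edgeR, adjusted p = 0.209). These 3 genes thus had lower mean levels in ARNoC under both treatments, and only the testosterone difference passed the adjusted threshold.

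Whether the testosterone response itself differed between genotypes was tested as an interaction, the ARNoC response minus the WT response. None of the 7 genes was called by edgeR, DESeq2 or limma-voom, and 0 had an unadjusted p below 0.05 with edgeR. Among all tested genes 0% were called with edgeR, with 1306 at an unadjusted p below 0.05, and DESeq2 called 25 genes. The interaction of Car2 was -0.54 on the log2 scale (95% interval -1.10 to 0.02; edgeR, adjusted p = 0.597). That of Car8 was -0.27 (interval -0.72 to 0.18; adjusted p = 0.763) and that of Car12 was -0.32 (interval -1.31 to 0.67; adjusted p = 0.87). A p that misses the threshold does not show that the responses were alike.

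**Figure D3:**
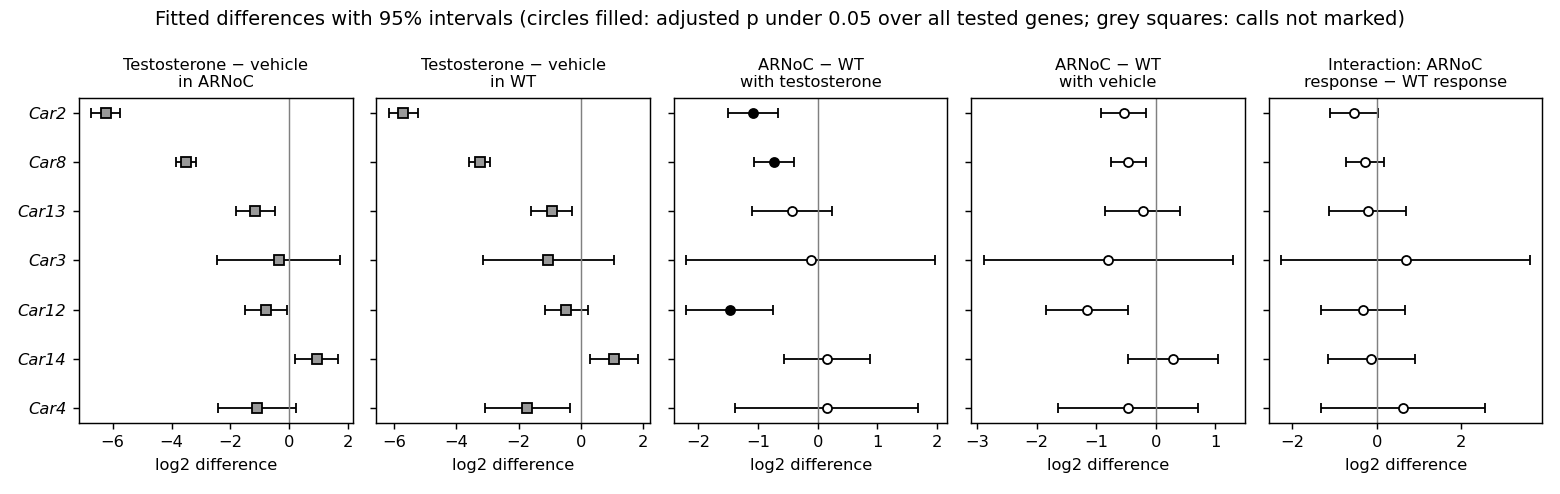
The x axis of each panel gives a fitted log2 difference with its 95% interval for the 7 genes that passed the filter, 5 libraries per group. Grey squares mark the testosterone comparisons, which chose the genes and where calls are not marked, and filled circles mark Car2, Car8 and Car12, which were lower in ARNoC than in WT with testosterone (edgeR, adjusted p below 0.05).

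The levels of different genes were compared per kilobase of exon, as mean normalized counts per kb. In ARNoC vehicle prostates the order began with Car2 at 5448 ± 1093, Car3 at 1523 ± 1218 and Car8 at 515 ± 121, and in WT vehicle prostates with Car2 at 7938 ± 1753, Car3 at 2671 ± 1736 and Car8 at 711 ± 139. In both, Car2 stood apart from the gene after it over all 5 libraries, whereas Car3 and Car8 overlapped. All others averaged below 50 per kb in vehicle prostates of both genotypes.

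With testosterone the order was different. In ARNoC testosterone prostates Car3 averaged 1172 ± 935 per kb, followed by Car5b, which encodes a mitochondrial carbonic anhydrase, at 75.6 ± 18.2, Car2 at 71.9 ± 19.6 and Car8 at 44.6 ± 7.41. Car5b and Car2 overlapped. In WT testosterone prostates the order was Car3 at 1274 ± 1680.4, Car2 at 153 ± 39.2, Car8 at 74.3 ± 7.26 and Car5b at 69.2 ± 16.5, where Car3 overlapped Car2 and Car8 overlapped Car5b.

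The sum over all 16 genes was 1425 ± 942 per kb in ARNoC testosterone and 7605 ± 1292 in ARNoC vehicle prostates, and 1643 ± 1679.9 in WT testosterone and 11461.5 ± 2079.7 in WT vehicle prostates. Car2 made up 7.21% ± 5.4 of this sum in ARNoC testosterone and 72.3% ± 12.6 in ARNoC vehicle, and 22.8% ± 19.7 in WT testosterone and 70.0% ± 14.2 in WT vehicle. Car3 made up 76.8% ± 12.4 in ARNoC testosterone and 19.4% ± 13.0 in ARNoC vehicle, and 48.7% ± 41.8 in WT testosterone and 22.4% ± 13.6 in WT vehicle. The large SD in WT testosterone came with the 2 libraries in which Car3 was at 120.2 and 9.31 normalized counts.

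**Figure D4:**
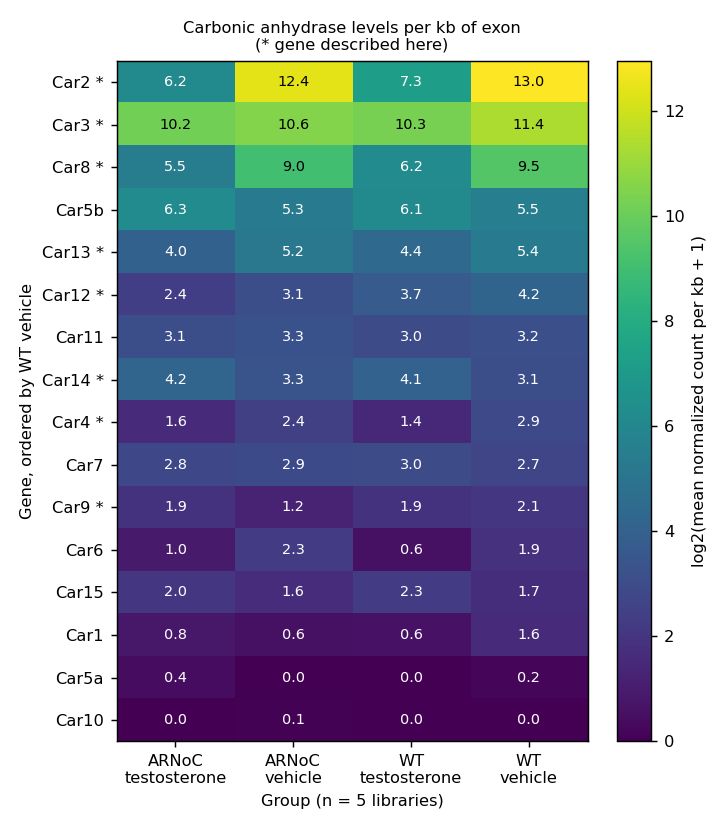
Rows are the 16 carbonic anhydrase genes, ordered by their level in WT vehicle prostates, columns are the 4 groups, and color and number give log2(mean normalized count per kb + 1) over 5 libraries. Car2 was at 6.19 in ARNoC testosterone and 12.41 in ARNoC vehicle, and at 7.26 in WT testosterone and 12.95 in WT vehicle. The values of Car3 lay between 10.2 and 11.38, but they are group means, and single WT testosterone libraries ran from 9.31 to 11288 normalized counts.

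Of the 8 other carbonic anhydrase genes 3 passed the filter, Car5b, Car7 and Car11. Car5b averaged 480.2 ± 116 in ARNoC testosterone and 249.9 ± 76.9 in ARNoC vehicle libraries, 1.92-fold higher (edgeR, adjusted p = 0.00492). With libraries scaled to their total counts, its log2 difference in ARNoC was 0.61 instead of 0.94 (edgeR, adjusted p = 0.047). In WT Car5b averaged 439.7 ± 105 with testosterone and 288 ± 112 with vehicle, 1.54-fold higher, just outside the threshold (edgeR, adjusted p = 0.05003). Car7 and Car11 did not pass the threshold with testosterone, with adjusted p of 0.851 and 0.711 in ARNoC and of 0.205 and 0.771 in WT (edgeR). Car1, Car5a, Car6, Car10 and Car15 were below the filter.

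The genes most like Car2 in pattern were found by the root mean square difference of log2 levels, each centred on the mean of its gene, over the 20 libraries. The closest were Cxcl15 (0.64), Entpd8 (0.889), Akr1c19 (1.01), Cxcl3 (1.05) and A930001A20Rik (1.17), while the median over all tested genes was 3.03 and the first percentile 2.25. Car8 came at place 9 with 1.34. The measure is a description over libraries that share depth and treatment.

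Cxcl15, a chemokine known from lung and other mucosal epithelia in mice, averaged 48.5 ± 18.1 in ARNoC testosterone and 3348 ± 2071 in ARNoC vehicle libraries, and 91.4 ± 20.2 in WT testosterone and 2837 ± 815 in WT vehicle libraries. Entpd8, which encodes an ectonucleotidase of the cell surface, averaged 42.3 ± 6.58 in ARNoC testosterone and 1123 ± 194 in ARNoC vehicle libraries, and 47.4 ± 9.44 in WT testosterone and 1225 ± 414 in WT vehicle libraries. Both were at most 126 in all 10 testosterone libraries and 621 or more in all 10 vehicle libraries. Akr1c19, of the aldo-keto reductase family, ranged from 0 to 1.19 in ARNoC testosterone and 32.3 to 60.7 in ARNoC vehicle libraries, and from 0 to 4.62 in WT testosterone and 33.1 to 61.8 in WT vehicle libraries. A930001A20Rik, a long intergenic RNA that begins 70.4 kb after the end of Car2 (chromosome 3, 14971201 to 15002727, plus strand), had at most 0.6 normalized counts in ARNoC testosterone and was at 0 in all WT testosterone libraries. It had 12.2 to 14.6 in ARNoC vehicle and 11 to 40.8 in WT vehicle libraries.

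**Figure D5:**
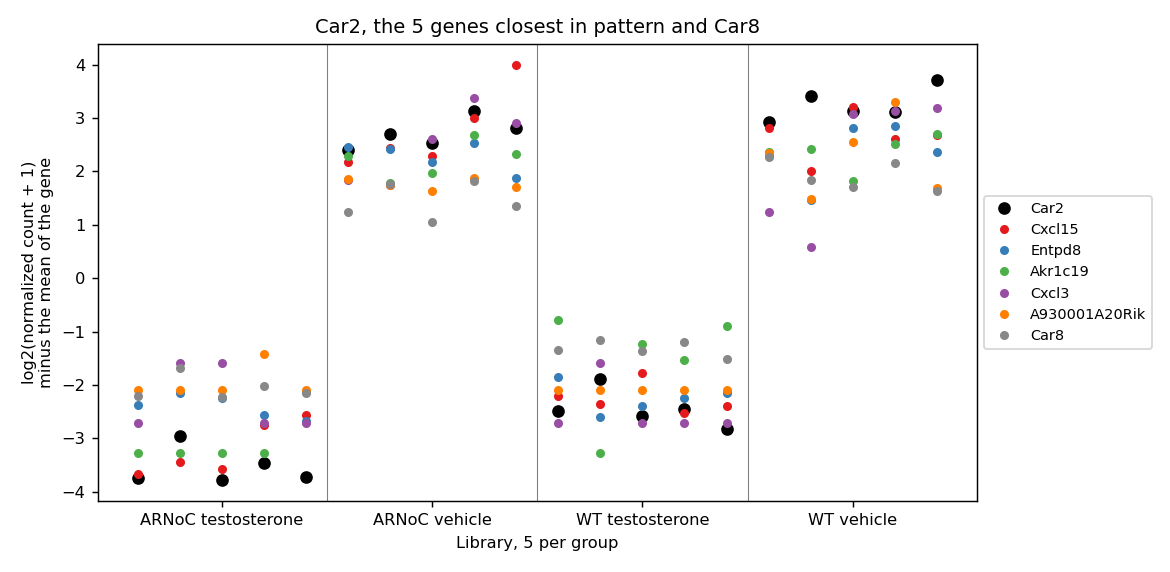
Each column of points is 1 library, and the y axis gives log2(normalized count + 1) minus the mean of the gene over the 20 libraries, for Car2, Car8 and the 5 genes closest to Car2. All 7 genes lie below 0 in every testosterone library and above 0 in every vehicle library. For the 5 genes picked for likeness to Car2 this split follows from the choice.

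Carbonic anhydrases work with transporters that move their products. Of 24 bicarbonate and anion transporter genes 11 were tested, of which 2 rose and 4 fell with testosterone in ARNoC, and 2 rose and 3 fell in WT. Of all tested genes 19.4% rose and 16.8% fell in ARNoC, and 20.4% rose and 18.8% fell in WT. With total-count scaling 1 transporter rose and 5 fell in each genotype. Slc26a4, the anion exchanger pendrin, averaged 6655 ± 1580.1 in ARNoC testosterone and 2859.9 ± 502 in ARNoC vehicle libraries, 2.33-fold higher (edgeR, adjusted p = 4.63e-06). In WT it averaged 6733 ± 908 with testosterone and 2979 ± 361 with vehicle, 2.27-fold higher (edgeR, adjusted p = 6.28e-06). Slc26a8, an anion transporter best known from sperm, fell 5.41-fold in ARNoC and 4.94-fold in WT. Slc4a7, a sodium-bicarbonate cotransporter, fell 1.23-fold in ARNoC and 1.56-fold in WT.

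Slc4a4, which brings sodium and bicarbonate into or out of epithelial cells, rose 1.37-fold in ARNoC (edgeR, adjusted p = 0.0278) and 1.49-fold in WT (adjusted p = 0.00538), and both calls were lost when libraries were scaled to their total counts (adjusted p = 0.588 and 0.407). With testosterone it was 1.6-fold lower in ARNoC, at 519 ± 72.7, than in WT, at 834 ± 108 (edgeR, adjusted p = 0.0255, and 0.0512 with total-count scaling). It was the 1 transporter of the 11 called between genotypes. With testosterone 1.01% of all tested genes were called lower in ARNoC and 1.69% either way. With total-count scaling 1 of the 11 was called higher in ARNoC and 0 lower, beside 336 higher and 101 lower among all 15261 tested genes. The median log2 difference of the list with testosterone was -0.29 in ARNoC and -0.21 in WT, against -0.01 and -0.02 for all tested genes.

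Of 19 proton and lactate transporter genes 15 were tested, of which 3 rose and 2 fell in ARNoC, and 5 rose and 4 fell in WT, beside 36.2% of all tested genes called in ARNoC and 39.2% in WT. The median log2 difference was -0.08 in ARNoC and 0.14 in WT. With total-count scaling 1 rose and 7 fell in ARNoC, and 2 rose and 8 fell in WT. Bsg, the partner protein of lactate transporters, rose 1.73-fold in ARNoC and 1.76-fold in WT (edgeR, adjusted p = 2.68e-06 and 1.7e-06). Atp12a, a proton-potassium pump, rose 2.43-fold in ARNoC (146 ± 53.9 with testosterone and 60.2 ± 19.3 with vehicle; edgeR, adjusted p = 0.0211, lost with total-count scaling at 0.0692) and 3.71-fold in WT.

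Of 24 V-ATPase genes, which encode the proton pump that acidifies vesicles, 21 were tested. In ARNoC 10 rose and 2 fell, and in WT 9 rose and 2 fell, but with total-count scaling 4 rose and 9 fell in ARNoC and 4 rose and 15 fell in WT, so the balance of the list depended on the scaling. Of all tested genes 19.4% rose and 16.8% fell in ARNoC and 20.4% rose and 18.8% fell in WT, and the median log2 difference of the list was 0.18 in ARNoC and 0.13 in WT. Atp6v1c2, a C subunit form, averaged 2025 ± 563 in ARNoC testosterone and 241 ± 43.3 in ARNoC vehicle libraries, 8.4-fold higher, and 1249 ± 289 in WT testosterone and 103 ± 34.4 in WT vehicle libraries, 12.2-fold higher (edgeR, adjusted p = 3.18e-09 and 8e-10). With vehicle it was also 2.36-fold higher in ARNoC than in WT (edgeR, adjusted p = 0.0194). Atp6v0a4, an a subunit form, fell 6.46-fold in ARNoC and 3.88-fold in WT, at 18.7 normalized counts or fewer on average.

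Of 26 genes that hypoxia induces in many cells, a program that includes Car9 and Car12, all 26 were tested. In ARNoC 12 rose and 1 fell, and in WT 11 rose and 3 fell, while with total-count scaling 9 rose and 10 fell in ARNoC and 6 rose and 11 fell in WT. The shares over all tested genes were again 19.4% and 16.8% in ARNoC and 20.4% and 18.8% in WT, and the median log2 difference of the list was 0.29 in ARNoC and 0.17 in WT. Pfkfb4, a regulator of glycolysis, rose 3.57-fold in ARNoC and 3.83-fold in WT, and Vegfa, the vascular growth factor, rose 2.52-fold in ARNoC and 2.21-fold in WT (edgeR, adjusted p from 6.26e-11 to 1.26e-07). The mitophagy receptor gene Bnip3l fell 1.33-fold in ARNoC and 1.27-fold in WT. Between genotypes with testosterone 1 of the 26 was called, beside 1.69% of all tested genes. Pdk1, a kinase that restrains pyruvate entry into mitochondria, was 1.35-fold lower in ARNoC, at 751 ± 32, than in WT, at 1020.2 ± 98.4 (edgeR, adjusted p = 0.00571). With total-count scaling 1 of the 26 was called higher in ARNoC and 1 lower.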

How the data were processed

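Ventral prostate RNA was made into Illumina TruSeq libraries, per the labels' protocols. FastQC 0.11.7, HISAT2, SAMtools 1.5, HTSeq, DESeq2 and the build mm10 are named in the submitters' processing notes, with settings, annotation and strand not given in the sources used here. Raw counts by symbol, for 43472 genes, are the values of the table the authors deposited. The deposited signal values are normalized counts of 23221 genes, counts divided by size factors, and the deposited ratio values are those size factors. All normalized values times their size factors were whole counts within 1e-06 (100%). Overlapping or antisense genes may share reads where strand was not used.

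The 15261 genes that reached 10 normalized counts in 5 or more of 20 libraries were scaled by TMM and fitted with edgeR 4.0.16 (R 4.3.3), quasi-likelihood F-test, 1 mean per group, Benjamini-Hochberg adjustment at 0.05. The coefficient of biological variation was 0.214. The test was tried on simulated data. Coordinates, exon lengths and coding sequences are from GENCODE M21 (mm10), and proteins were aligned with Biopython 1.88. Correlations used scipy 1.17.1 on log2(value + 1). Alternatives were DESeq2 1.42.0, limma-voom (limma 3.58.1), other scalings, no filter, compared groups alone and leaving out libraries. Figures used matplotlib 3.10.9.

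Text names all 8 members, the other carbonic anhydrases, the 5 genes closest to Car2 and up to 3 genes each way per list by adjusted p. Some genes that this rule takes are left out here. The marker genes Krt8, Krt18, Adipoq and Plin1 and the genotype calls within lists were named besides. Members and lists were chosen with earlier results of these data known.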

Additional observations from a re-analysis of the deposited data

How the results depend on the processing

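Scaling libraries to total counts moved the testosterone difference of Car2 to -6.59 in ARNoC and -6.13 in WT, and it moved the median of all genes to -0.36 and -0.44. With it 1178 genes were higher and 7548 lower in ARNoC (main split 2962 and 2565), 1099 and 9120 in WT (main 3114 and 2871), and 336 and 101 between genotypes with testosterone (main 104 and 154). The number of the 7 genes called between testosterone and vehicle in WT was 3 with no filter, where 5749 of all 26485 genes were called. It was 3 to 5 when single libraries were left out (3 without WT vehicle library 1, 3 or 4 or WT testosterone library 3 or 4). Nothing is read from these counts, as the genes were picked on this comparison. Between genotypes with testosterone it was 1 with limma-voom, where Car8 had adjusted p = 0.0905 (0.00106 to 0.0905 over 7 settings) and Car12 0.11 (0.00248 to 0.11), and 1 to 3 with single libraries left out. Car2 kept its direction in every setting and its call between genotypes with testosterone in all 7 other settings and all 20 runs without 1 library.

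Differences near 0 changed sign. Car3 between genotypes with testosterone was 1.85 with limma-voom and -0.71 to 0.94 with single libraries left out, and with testosterone in ARNoC it was -1.0 to 0.16. Car4 between genotypes with testosterone was -0.28 to 0.94, and the interactions of Car13 and Car14 were -0.42 to 0.14 and -0.5 to 0.1. The causes were not tested. Over all genes, 258 were called between genotypes with testosterone, against 493 with DESeq2, and 49 with vehicle, against 138 with DESeq2 and 19 with the compared groups alone. No paired analysis was possible because the labels give no replicate numbers shared between groups.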
